A study of Mus musculus with 18 samples.

Results

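Trp53 and 9 genes that its protein activates were followed through the RNA of lung organoids and tumour organoids in which a mutant human EGFR had been switched on. The 10 genes were chosen by name, with Trp53 as the transcription factor and Cdkn1a, Mdm2, Ccng1, Bax, Phlda3, Zmat3, Sesn2, Eda2r and Trp53inp1 as its targets, and each was found by its gene identifier through the GENCODE vM21 annotation among the 46603 genes measured. The question was whether the targets follow the Trp53 transcript or move against it. As background, p53 is controlled mostly at the level of its protein: Mdm2 marks it for destruction, stress signals and the product of the Cdkn2a locus block Mdm2, and stabilised p53 then raises its targets, among them Mdm2 itself. The amount of Trp53 transcript is therefore not a measure of p53 activity. In lung adenocarcinoma, loss of p53 function is a known partner of activated EGFR.

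The mice carried human EGFR with the T790M and L858R changes at the Col1a1 locus, silent behind a lox-stop-lox cassette and driven by the broadly active CAG promoter once Cre has acted. Epithelial cells of these mice were sorted by a surface marker in each region. In distal lung, Sca1 parted bronchioalveolar stem cells (BASC, positive) from alveolar type 2 cells (AT2, negative). In trachea, NGFR parted basal cells (positive) from club cells (negative). Cells of the same sort were infected either with an adenovirus carrying Cre (Ad-Cre) or, as control, with a GFP adenovirus (Ad-GFP), which makes matched pairs of cultures with the same alleles. Cultures grew in Matrigel with lung mesenchymal and endothelial support cells, and Ad-Cre organoids were then injected through the trachea of immunocompromised mice and the tumours were cultured again as tumoroids.

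RNA was sequenced from 18 cultures. The 10 organoid cultures were club, basal, AT2 and mixed BASC cells with Ad-GFP and with Ad-Cre, plus alveolar and bronchiolar BASC subcultures with Ad-Cre. Each of these conditions was a single culture, so the populations stand in for replicates and every test over them measures the spread between these cultures. The 8 tumoroids were 3 of AT2 origin, 3 of mixed BASC origin, 1 of bronchiolar BASC origin and 1 autochthonous tumoroid, from a tumour that arose in a mouse given Ad-Cre. Titles of tumoroids share numbers: AT2 replicates 2 and 3 share one, and mixed BASC replicates 2 and 3 share another with the bronchiolar tumoroid, so these may not be independent. Organoids were sequenced on HiSeq and tumoroids on DNBSEQ, so stage and platform cannot be told apart. Total expected counts (reads that RSEM assigned to genes) ran from 27772660 to 97191624 in organoids and from 15327265 to 23355938 in tumoroids. The human EGFR transgene was not analysed. Levels below are in TPM, which scales reads by gene length and library total. CPM stands for counts scaled by library totals that were adjusted with TMM normalisation factors, without regard to gene length. Differences are log2 fold changes fitted to counts with edgeR, in which a difference of 1 is a doubling and a gene is called at a Benjamini-Hochberg adjusted p below 0.05.

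The labels were checked against markers. Summed TPM of 7 AT2 markers was 83391 and 77454 in the AT2 organoids and 77978 in the alveolar BASC culture, with Sftpc, the surfactant protein C gene, the most abundant. It was 788 and 3540.2 in the mixed BASC pair, 2992 in the bronchiolar BASC culture and 58.2 to 171 in the tracheal cultures. The club and basal labels separated in part. The sum of 4 club markers was higher in club cultures, at 8599.5 and 8008 TPM, than in basal ones, at 5817 and 4411 TPM. Ngfr, the sorting marker, did not follow the labels and was at 53.1 and 50.2 TPM in the NGFR-negative cultures and at 48.3 and 46.6 TPM in the NGFR-positive ones. Krt5, a basal keratin, was at 2063 and 1899 TPM in the former and 1694 and 1549 TPM in the latter, and Scgb1a1, the club secretoglobin, was between 7.03 and 18.4 TPM in all 4. These cultures are called by their sorting labels from here on. The AT2-derived tumoroids carry an NGFR-negative sorting label beside their AT2 origin and were grouped by origin. Their AT2 markers summed to 144746, 98005 and 31017 TPM, against 69441, 33732 and 57597 TPM in mixed BASC tumoroids and 8177 TPM in the bronchiolar one, so these markers do not separate the AT2-derived from the mixed BASC-derived tumoroids.

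The members fall into several roles. Trp53 (ENSMUSG00000059552) encodes the transcription factor and lies on chromosome 11 from 69580359 to 69591873, plus strand, in the GRCm38 build. Mdm2 (ENSMUSG00000020184, chromosome 10) encodes the ubiquitin ligase that degrades p53, and Ccng1 (ENSMUSG00000020326, chromosome 11) encodes cyclin G1, a partner of Mdm2 in that feedback. Cdkn1a (ENSMUSG00000023067, chromosome 17) encodes p21, the inhibitor of cyclin-dependent kinases that halts the cell cycle. Bax (ENSMUSG00000003873, chromosome 7) encodes the protein that opens mitochondria in apoptosis, Eda2r (ENSMUSG00000034457, chromosome X) is a receptor of the tumour necrosis factor family for ectodysplasin A2, and Phlda3 (ENSMUSG00000041801, chromosome 1) blocks Akt at the membrane. Trp53inp1 (ENSMUSG00000028211, chromosome 4) is a nuclear cofactor of p53 in the stress response, Sesn2 (ENSMUSG00000028893, chromosome 4) restrains mTORC1 under stress, and Zmat3 (ENSMUSG00000027663, chromosome 3) is a zinc finger protein that binds RNA. All 10 members passed the filter on low counts in every comparison.

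Per length, Cdkn1a was the most abundant member in the median organoid, at 295 TPM, and Eda2r the least, at 4.19 TPM. Between them came Phlda3 at a median of 129.8 TPM, Ccng1 at 95.7, Bax at 88.9, Mdm2 at 73.2, Trp53 at 51.7, Trp53inp1 at 33.2, Sesn2 at 31.5 and Zmat3 at 11.2 TPM. The ranges of Phlda3 (50.0 to 162 TPM), Ccng1 (77.2 to 157), Bax (77.6 to 99.1), Mdm2 (66.0 to 98.7) and Trp53 (44.9 to 99.8) overlapped. So did those of Trp53inp1 (26.4 to 44.8) and Sesn2 (25.4 to 36.6), so the ranges over cultures do not order these neighbours. Tumoroids had another order, with Cdkn1a at a median of 217 TPM, then Bax at 135, Trp53 at 129, Ccng1 at 53.2, Mdm2 at 46.4, Phlda3 at 33.3, Sesn2 at 30.1, Trp53inp1 at 10.6, Zmat3 at 9.83 and Eda2r at 2.34 TPM. The Bax and Trp53 ranges, 103 to 218 and 85.4 to 216 TPM, overlapped almost wholly.

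**Figure D1:**
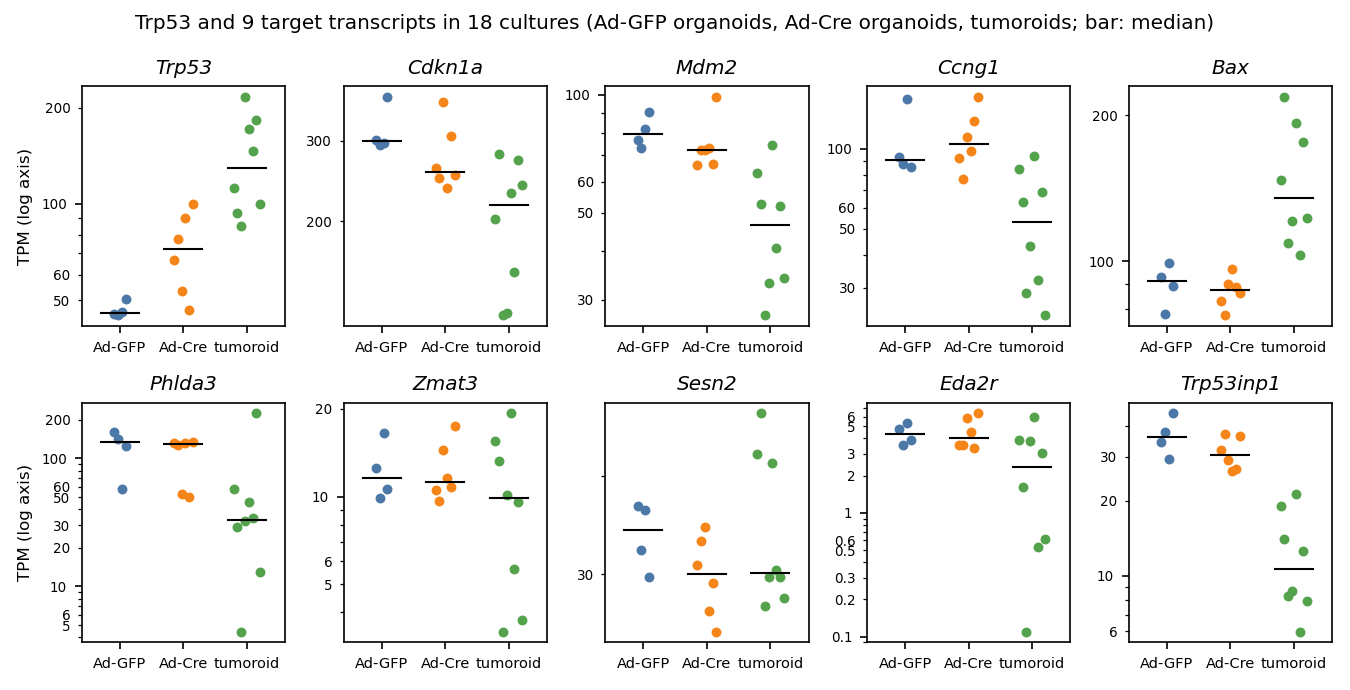
Level in TPM (log axis) of each of the 10 members in all 18 cultures, one panel a gene, with organoids and tumoroids apart. In tumoroids Trp53 lies between 85.4 and 216 TPM and Trp53inp1 between 5.99 and 21.3 TPM, while all 10 organoid cultures hold Trp53inp1 at 26.4 TPM or more.

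The first comparison asks what switching on mutant EGFR did to the Trp53 transcript and to its targets. The Trp53 transcript was higher with Ad-Cre in 4 of 4 pairs, yet no target was higher in all pairs. By counts Mdm2, Sesn2 and Trp53inp1 were lower in all of them, with Trp53inp1 at -0.00 in the club pair. On log2(TPM + 1) Sesn2 was lower in 3 of 4. Neither the Trp53 difference nor any target difference passed the test over all genes. Trp53 was at 45.1, 44.9, 45.9 and 50.3 TPM in the club, basal, AT2 and mixed BASC cultures with Ad-GFP, and at 66.5, 77.8, 53.2 and 90.5 TPM in the same order with Ad-Cre. The 4 control levels lay close together, the Ad-Cre levels spread widely, and the groups did not overlap. The AT2 pair had the smallest difference and the mixed BASC pair the largest.

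On log2 CPM the Trp53 difference was 0.58 in the club pair, 0.79 in the basal pair, 0.22 in the AT2 pair and 0.89 in the mixed BASC pair. The fitted log2 fold change was 0.61 (SE 0.12, 4 pairs, higher in 4 of 4), a 1.53-fold level, with an adjusted p of 0.994. Over 11 alternative settings the estimate stayed between 0.53 and 0.75 and the adjusted p between 0.151 and 1.00. Within single pairs, the signed Trp53 difference was at or above that of 94.3% of all genes in the club pair and 96.6% in the basal pair. The share was 77.4% in the AT2 pair and 92.9% in the mixed BASC pair, measured on the same scale. Genes lower with Ad-Cre count in these shares, which therefore do not rank the size of a change. RSEM assigned 0 counts to the pseudogene Trp53-ps in all 18 cultures and 180 to 1283 counts to Wrap53, which starts beside Trp53 on the other strand, against 1344 to 6451 for Trp53. Whether reads of these loci were assigned to Trp53 was not tested.

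With edgeR, 0 of 17749 genes (0%) were called between Ad-Cre and Ad-GFP over the 4 pairs, and so 0 of the 10 members. At an unadjusted p below 0.05 there were 350 genes, and DESeq2 called 5, none of them a member. Being higher in 4 of 4 pairs was true of 927 genes (5.22%), among which Trp53 was the 1 member, and being lower in 4 of 4 of 832 genes (4.69%), among which were 3 members.

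Mdm2 and Ccng1 form the feedback side. Mdm2 was at 76.8, 73.3, 81.5 and 90.1 TPM with Ad-GFP and at 66.0, 72.3, 72.2 and 73.1 TPM with Ad-Cre, in the order club, basal, AT2 and mixed BASC. It was lower in every pair. The groups lay side by side in TPM and overlapped in CPM, at 100.2 to 129 with Ad-GFP and 99.8 to 109 with Ad-Cre. Over the pairs it differed by -0.15 on the log2 scale (SE 0.07, adjusted p 0.994). Ccng1 was at 93.0, 88.0, 154 and 85.8 TPM with Ad-GFP and at 92.3, 77.2, 111 and 98.4 TPM with Ad-Cre, so that AT2 cells stood above the other populations and the mixed BASC pair ran the other way (log2 fold change -0.16, SE 0.13).

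Cdkn1a, the arrest gene, was at 301, 293, 297 and 374 TPM with Ad-GFP and at 261, 249, 364 and 237 TPM with Ad-Cre in that order. It was lower in 3 pairs and higher in the AT2 pair, and the groups overlapped. The mixed BASC pair held both the highest control and the lowest Ad-Cre level, a log2 difference of -0.63, while the AT2 pair differed by 0.26. Over the 4 pairs the log2 fold change was -0.20 (SE 0.15, adjusted p 0.994), and it was -0.34 without the AT2 pair and -0.05 without the mixed BASC pair.

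Trp53inp1 was at 34.5, 37.7, 29.3 and 44.8 TPM with Ad-GFP and at 32.0, 37.1, 29.1 and 26.4 TPM with Ad-Cre. All but the mixed BASC pair were nearly level, and that pair differed by -0.70 on the log2 scale against -0.00 to -0.10 in the others. Sesn2 was at 36.6, 32.2, 36.2 and 29.8 TPM with Ad-GFP and at 30.8, 33.1, 34.5 and 27.0 TPM with Ad-Cre, with overlapping groups. By counts it was lower in 4 of 4 pairs, by -0.01 in the basal pair, and there its sign turned to 0.04 on the log2(TPM + 1) scale, which leaves 3 of 4. The fitted log2 fold changes were -0.22 (SE 0.13) for Trp53inp1 and -0.10 (SE 0.06) for Sesn2.

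The remaining members differed little between the viruses. Bax was at 92.8, 78, 99.1 and 89.1 TPM with Ad-GFP and at 83.1, 77.6, 90.0 and 96.5 TPM with Ad-Cre, a log2 fold change of -0.04 (SE 0.08). Phlda3 differed between populations more than between viruses: 162, 143, 58.1 and 126 TPM with Ad-GFP and 133, 127, 52.4 and 133 TPM with Ad-Cre, with AT2 cultures the low ones in both groups. Zmat3 was at 12.5, 9.86, 16.5 and 10.6 TPM with Ad-GFP and 10.5, 9.64, 14.4 and 11.6 TPM with Ad-Cre, and AT2 cultures were the high ones. Eda2r was at 4.75, 3.55, 5.29 and 3.88 TPM with Ad-GFP and 3.56, 3.53, 5.82 and 4.50 TPM with Ad-Cre. Groups overlapped for all 4 genes, with log2 fold changes of -0.06 (SE 0.07) for Phlda3, -0.08 (SE 0.09) for Zmat3 and -0.03 (SE 0.14) for Eda2r. Bax, Phlda3 and Zmat3 were each lower in 3 pairs and higher in the mixed BASC pair, and Eda2r was lower in the tracheal pairs and higher in the distal pairs.

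Set side by side, the target differed in sign from Trp53 in 29 of 36 combinations of target and pair. The share was 9 of 9 in the club pair, 9 of 9 in the basal pair, 7 of 9 in the AT2 pair and 4 of 9 in the mixed BASC pair, where Trp53 differed most. Across all genes 48.4%, 49.2%, 51.3% and 49.1% were below 0 in those pairs. The count was 28 on log2(TPM + 1) and 29 with DESeq2 size factors. In the fit over 4 pairs, 9 of 9 targets were below 0, with a median log2 fold change of -0.10 against -0.01 for all genes, of which 51.5% were below 0. Between 7 and 9 targets stayed below 0 over 11 alternatives, 9 of them under each change of scaling, and for Bax, Phlda3, Zmat3 and Eda2r the estimate was smaller than its standard error. Targets are not independent of each other, so the counts describe these cultures and carry no test.

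**Figure D2:**
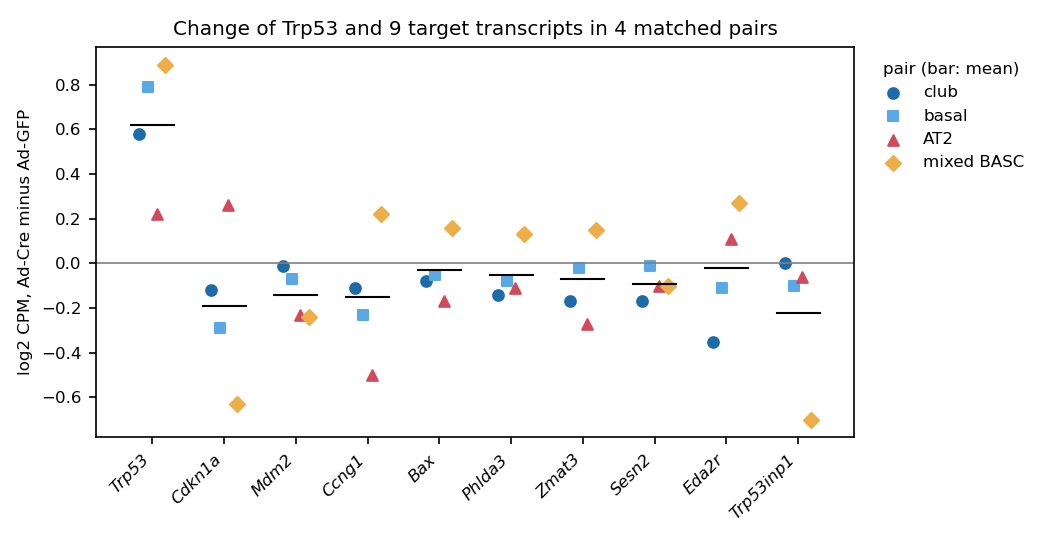
Difference in log2 CPM, Ad-Cre minus Ad-GFP, for each member in the club, basal, AT2 and mixed BASC pairs. Trp53 is above 0 in all 4 pairs, from 0.22 to 0.89, and 29 of the 36 target values lie below 0.

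The alveolar and bronchiolar BASC cultures with Ad-Cre have no control of their own, and were set beside the mixed BASC control. They parted: Trp53 was at 46.5 TPM in the alveolar culture, as low as in the controls, and at 99.8 TPM in the bronchiolar culture, the highest of the 10 organoids. On log2 CPM these were 0.08 and 0.96 above the mixed BASC control. Ccng1 was higher in both, by 0.70 and 0.84, at 127 and 157 TPM. Cdkn1a was lower by -0.12 and -0.63, at 307 and 252 TPM, and Zmat3 and Eda2r were higher by 0.72 and 0.76 in the bronchiolar culture alone, against 0.16 and 0.01. Phlda3 was lower by -1.15 in the alveolar culture, at 50.0 TPM, close to the AT2 organoids. With 1 culture each these differences were not tested.

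Other p53 targets were not called either. Of 35 fixed by list, 34 were measured over the 4 pairs and 0 were called, 21 were below 0, and their median was -0.04. The smallest p-values belonged to Abhd4, a lipase, at -0.20 (SE 0.06), and Aen, an apoptosis nuclease, at -0.20 (SE 0.08), both with an adjusted p of 0.994. Of 23 regulators of p53, 0 were called and the median was 0.02. Cdkn2a, whose locus encodes the Mdm2 inhibitor p19Arf as well as p16, was at 42.4, 30.2, 109 and 45.3 TPM with Ad-GFP and 63.4, 49.0, 115 and 101 TPM with Ad-Cre. It was higher in 4 of 4 pairs, with the AT2 pair again the closest, and its log2 fold change of 0.63 (SE 0.18) had an adjusted p of 0.994. Gene counts do not separate the transcripts of p19Arf from those of p16. The acetyltransferase gene Crebbp was at 0.10 (SE 0.07).

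The p53 relatives and the cell cycle genes were not called either. Trp63, the basal cell relative of p53, differed by 0.11 (SE 0.20) and Trp73 by -0.46 (SE 0.52). Of 20 cell cycle genes that p53 represses through p21, 17 were below 0 with a median of -0.07, among them the anaphase activator Cdc20 at -0.35 (SE 0.17) and the kinase Nek2 at -0.53 (SE 0.30). Without the AT2 pair 12 of the 20 were below 0 and the median was -0.01.

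Support cells could contribute RNA to every culture, and in bulk RNA fewer cells of a type and less RNA per cell cannot be told apart. Of 10 mesenchymal markers 0 were called, with 10 of 10 above 0. Their summed TPM was 1529.5, 1299.6, 4746 and 1250.5 with Ad-GFP and 1313, 1411, 4369.6 and 3223 with Ad-Cre in the order club, basal, AT2 and mixed BASC, with Fn1 or Col3a1 the most abundant and no marker at 0. The sum was thus higher by far with Ad-Cre in the mixed BASC pair, the pair with the largest Trp53 difference. It was 2735 and 3548 TPM in the alveolar and bronchiolar cultures. Ciliated markers, 0 of 5 called, ran the other way in the mixed BASC pair, at 1165 and 349 TPM with Tuba1a the most abundant, and AT2 markers (0 of 7 called) summed there to 788 TPM with Ad-GFP and 3540.2 TPM with Ad-Cre. Of 4 club and 5 basal markers 0 were called. Endothelial markers summed to at most 0.610 TPM in organoids, with Emcn or Cldn5 at 0 in each culture, and immune markers to between 25.1 and 104 TPM, nearly all Cd68. The part of these cells in the p53 results was not tested.

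The tracheal and distal pairs were then compared, to ask whether the epithelium of origin alters the response. They use the same 8 cultures as the comparison above. Both regions were fitted in a single model with a shared estimate of the spread. The standard errors and p-values of each region therefore carry the spread of the pairs of both. Trp53 was higher with Ad-Cre in both regions, with a log2 fold change of 0.67 (SE 0.18, 2 pairs) in trachea and 0.55 (SE 0.18, 2 pairs) in distal lung. Targets were below 0 in 9 of 9 cases in trachea and 7 of 9 in distal lung, where Eda2r (0.18, SE 0.18) and Phlda3 (0.00, SE 0.12) were not. Trp53inp1 was at -0.06 (SE 0.18) in trachea and -0.39 (SE 0.18, adjusted p 0.697) in distal lung, Mdm2 at -0.05 (SE 0.11) and -0.24 (SE 0.11, adjusted p 0.684), and Cdkn1a at -0.21 (SE 0.24) and -0.19 (SE 0.24). The difference of the Trp53 effect, trachea minus distal lung, was 0.12 (SE 0.26), and the adjusted p was 1.00 for all 10 members.

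None of these was called. The tracheal contrast called 0 of 19178 genes with edgeR (0%), 137 at an unadjusted p below 0.05 and 2 with DESeq2. The distal contrast called 0 (0%), with 1530 at an unadjusted p below 0.05 and 355 with DESeq2, and the difference of the effects called 0 (0%), with 890 and 145. Adjusted p for Trp53 was 1.00 in trachea and 0.547 in distal lung.

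The distal result rests on pairs that went apart, and leaving one out leaves a lone pair that is assumed to vary like the others. Without the AT2 pair the distal contrast called 3043 of 19103 genes, among them Trp53 (0.92, adjusted p 0.000366), Cdkn1a (-0.60, adjusted p 0.0161) and Trp53inp1 (-0.68, adjusted p 0.00643). Here Trp53 was higher and both targets were lower in the mixed BASC pair alone, and the number of targets below 0 fell to 4 of 9. Without the mixed BASC pair 551 genes were called and 0 members, with Trp53 at 0.21 and Cdkn1a at 0.25, the opposite sign. Over 9 alternatives the adjusted p of Trp53 ran from 0.000366 to 1.00, that of Cdkn1a from 0.0161 to 1.00 and that of Trp53inp1 from 0.00643 to 1.00. The tracheal Trp53 difference passed as well when the AT2 pair was left out (0.68, adjusted p 0.00985, range 0.00985 to 1.00), against an estimate of 0.67 with all pairs. A lone distal pair is fitted exactly by its own terms, so the residual spread then came from the tracheal pairs alone. The part of this in the call was not tested. The tracheal contrast then called 46 genes, and 10 without the mixed BASC pair. The difference of the effects called 2036 and 385 genes without those pairs, with 0 members in both.

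In the difference of the effects 0 of the 20 p21-repressed genes were called. Of these 19 were below 0 in distal lung, with a median of -0.25, and 15 were above 0 in trachea, with a median of 0.06. The medians of all genes were -0.01 and -0.00. In trachea the sign hung on single pairs: without the club pair 15 of 20 were below 0, and without the basal pair 19 were above 0. Nek2 was at 33.6 and 33.3 TPM in the tracheal controls and 32.0 and 32.7 TPM with Ad-Cre. In the distal pairs it went from 5.09 to 3.87 TPM in AT2 and from 55.1 to 16.5 TPM in mixed BASC cells (distal log2 fold change -1.08, SE 0.30, adjusted p 0.475). For the difference of the effects, Nek2 was at 1.07 (SE 0.42) and the proliferation marker Mki67 at 0.50 (SE 0.23), both with an adjusted p of 1.00. In trachea Mki67 was at 0.18 (SE 0.16) and the kinesin Kif23 at 0.23 (SE 0.14), and Cdc20 in distal lung was at -0.61 (SE 0.19, adjusted p 0.532). Without the AT2 pair Nek2 passed in distal lung (adjusted p 6.61e-08, range 6.61e-08 to 1.00) and in the difference (2.96e-06 to 1.00), and Cdc20 passed in distal lung (0.00131 to 1.00).

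Of the other p53 targets, the death receptor Fas was at -0.58 (SE 0.17, adjusted p 0.501) in distal lung, from 31.4 to 21.4 TPM in AT2 and from 24.6 to 16.0 TPM in mixed BASC cells. Dcxr, a sugar reductase, was at -0.60 (SE 0.26) there, and the difference between regions was 0.50 (SE 0.24) for Fas and 0.34 (SE 0.18) for Rrm2b. In trachea the nuclease Aen was at -0.22 (SE 0.13) and Apaf1, the core of the apoptosome, at 0.20 (SE 0.12). Of the regulators, Ppp1r13l, which encodes the p53 inhibitor iASPP, was at -0.23 (SE 0.13) in trachea and 0.39 (SE 0.13) in distal lung, and its difference of -0.62 (SE 0.18) had an adjusted p of 0.881. Twist1 was at 0.54 (SE 0.21) in distal lung and -0.66 (SE 0.31) in the difference. Cdkn2a was at 0.64 (SE 0.28) in trachea. Trp63 was at -0.12 (SE 0.26) in trachea and 0.36 (SE 0.27) in distal lung, and Trp73 at 0.09 (SE 0.47) and -1.59 (SE 0.65), with differences of -0.48 (SE 0.37) and 1.68 (SE 0.79). None of these passed with all pairs. With 1 pair left out, Cdkn2a passed in trachea without the AT2 pair (adjusted p 0.0214, range 0.0214 to 1.00), and so did Dcxr in distal lung (3.34e-05 to 1.00) and Trp73 in distal lung (1.34e-07 to 1.00) and in the difference (2.47e-06 to 1.00). The Trp73 estimate ran from -1.95 to 4.35 in distal lung and from -4.24 to 2.02 in the difference, so its sign turned. The lowest Trp73 level was 0 TPM among Ad-GFP organoids and 0.0300 TPM among the matched Ad-Cre organoids. Values near the floor thus enter these estimates. Trp63, from -0.11 to 0.93 in distal lung, passed there without the mixed BASC pair (0.0179 to 1.00) and in the difference (0.0319 to 1.00).

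Tracheal and distal organoids were also compared in level, over all 10 cultures with the virus as a term. The model takes the cultures as independent, although the viruses share sorted populations and the 4 BASC cultures come from 1 population, so its standard errors may be too small. No member differed between the regions by the test. edgeR called 3 of 18103 genes (0.0166%) and 0 of the 10 members, with 4690 genes at an unadjusted p below 0.05. Phlda3 was at 127 to 162 TPM in the 4 tracheal cultures and at 50.0 to 134 TPM in the 6 distal ones, where AT2 and alveolar BASC cultures were low and the mixed and bronchiolar ones overlapped the trachea (0.56, SE 0.27, adjusted p 0.225). Ccng1 had a range of 77.2 to 93.0 TPM in trachea and of 85.8 to 157 TPM in distal lung (-0.57, SE 0.21, adjusted p 0.144). Mdm2 was at -0.26 (SE 0.09, adjusted p 0.126), Bax at -0.25 (SE 0.10, adjusted p 0.159), Zmat3 at -0.43 (SE 0.17, adjusted p 0.160) and Eda2r at -0.49 (SE 0.22, adjusted p 0.196), Trp53 at -0.16 (SE 0.17, adjusted p 0.537) and Cdkn1a at -0.27 (SE 0.16, adjusted p 0.312). Sesn2 and Trp53inp1 were level, at 0.00 (SE 0.14) and 0.01 (SE 0.12). All 10 members overlapped between regions. Cell type markers differed in direction as well, with 0 called in the lists that follow. Of mesenchymal markers 10 of 10 were below 0 (median -1.80), and of AT2 markers 7 of 7 (median -9.35). Of basal and ciliated markers 5 of 5 each were above 0 (medians 1.83 and 1.48), and 2 of 4 club markers were. The part of these cells in the member differences was not tested.

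That comparison turns on 1 culture, the mixed BASC control, and the cause was not tested. Without it edgeR called 4856 of 17838 genes, a share close to that of the members, and among them Ccng1 (adjusted p 0.0173), Zmat3 (adjusted p 0.0289) and Eda2r (adjusted p 0.0489) were lower in trachea. Without any 1 of the club Ad-GFP, club Ad-Cre, basal Ad-GFP, mixed BASC Ad-Cre, alveolar or bronchiolar cultures 0 genes were called, and without basal Ad-Cre or either AT2 culture 2. DESeq2 called 2928 genes, and Mdm2 passed there with an adjusted p of 0.0279. Of the listed genes, Dcxr was at 1.25 (SE 0.34) and Zfp365 at -2.04 (SE 0.56), and the regulators Cdkn2a and Twist1 were at -1.09 (SE 0.25) and -2.17 (SE 0.63), each with an adjusted p of 0.109. All 4 passed with DESeq2 and without the mixed BASC control, with adjusted p from 0.00822 to 0.310 for Dcxr, 0.00307 to 0.360 for Zfp365, 0.00233 to 0.295 for Cdkn2a and 0.00441 to 0.376 for Twist1. Of the 20 p21-repressed genes 17 were above 0, with a median of 0.37, and 0 were called. Over 16 alternatives at most 6 of them were called higher and at most 1 lower. E2f1 was at -0.90 (SE 0.29, adjusted p 0.119), Mki67 at 0.52 (SE 0.21, adjusted p 0.164), Trp63 at 1.25 (SE 1.02) and Trp73 at 1.43 (SE 1.45). E2f1 passed in the same 2 settings (0.0215 to 0.380) and Mki67 without the mixed BASC control (0.0179 to 0.392).

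The next comparison asks how the set stands after growth as tumours, in 7 transplant tumoroids against the 4 distal Ad-Cre organoids. Trp53 and Bax were higher in tumoroids and Ccng1 and Trp53inp1 lower, while Cdkn1a, Mdm2, Phlda3, Zmat3, Sesn2 and Eda2r did not pass. Of the targets that passed, then, 1 went with the Trp53 transcript and 2 against it. With the cell of origin as a block, for which the alveolar organoid was also left out, 0 of the 10 members were called, and the estimates of these 4 were 0.88 for Trp53, 0.88 for Bax, -0.92 for Ccng1 and -1.26 for Trp53inp1. Without the alveolar organoid alone 1 member was called. edgeR called 3167 of 16139 genes (19.6%), 1751 higher (10.8%) and 1416 lower (8.77%), and 4 of the 10 members, 2 higher and 2 lower. The median over the 9 targets was -0.56 against -0.00 for all genes. Tumoroids differ from these organoids in platform and depth too, the Ad-Cre distal cultures also stand in the comparisons above, and the stage and the platform cannot be told apart.

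Trp53 was at 53.2, 90.5, 46.5 and 99.8 TPM in AT2, mixed, alveolar and bronchiolar BASC organoids with Ad-Cre, and ran from 85.4 over a median of 146 to 216 TPM in the tumoroids. The lowest tumoroid, AT2 replicate 2, and AT2 replicate 1 at 93.5 TPM were within the organoid range, and the highest was AT2 replicate 3. Trp53 rose by 0.91 on the log2 scale (SE 0.26, adjusted p 0.0325, 1.88-fold). The call is near the threshold. The adjusted p was 0.0869 without the AT2 organoid, 0.0948 without the alveolar BASC organoid, and 0.0523 and 0.0520 without mixed BASC tumoroids 1 and 2. It was 0.0627 with no filter on low counts, 0.0521 with limma on TPM, 0.0520 with no bronchiolar culture and 0.0952 with the cell of origin as a block, over a range of 0.00832 to 0.0952 in 20 alternatives with estimates of 0.79 to 1.05.

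Bax was at 90.0, 96.5, 88.7 and 86.0 TPM in the 4 organoids in the same order and from 103 over a median of 123 to 218 TPM in the tumoroids. Every tumoroid was above every organoid, also when all 10 organoids and all 8 tumoroids are taken. Bax rose by 0.84 (SE 0.25, adjusted p 0.0382, 1.79-fold). The adjusted p was 0.0801, 0.0814, 0.0694 and 0.109 without the AT2, mixed, alveolar and bronchiolar BASC organoids in turn and 0.0626 without mixed BASC tumoroid 1. It was 0.0693 with no filter, 0.0543 with limma, 0.133 with no bronchiolar culture and 0.116 with the origin block, over a range of 0.00900 to 0.133 with estimates of 0.66 to 0.97.

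Trp53inp1 was at 29.1, 26.4, 26.8 and 36.4 TPM in the organoids and from 5.99 over a median of 8.68 to 21.3 TPM in the tumoroids. No tumoroid reached the lowest organoid of the study, the autochthonous tumoroid at 19.1 TPM included. Trp53inp1 fell by 1.31 on the log2 scale (SE 0.29, adjusted p 0.00998), a 2.48-fold lower level. It kept its call in 19 of 20 alternatives (adjusted p from 0.000520 to 0.0683), the exception being the origin block without the alveolar organoid (-1.26, adjusted p 0.0683), and the estimates ran from -1.48 to -1.15.

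Ccng1 was at 111, 98.4, 127 and 157 TPM in the organoids and from 23.7 over a median of 43.2 to 94.1 TPM in the tumoroids. The groups did not overlap, although mixed BASC tumoroid 1 came within reach of its organoid of origin. Ccng1 fell by 1.08 (SE 0.34, adjusted p 0.0484, 2.11-fold lower). That call is the least firm: the adjusted p was 0.0821, 0.0669, 0.103 and 0.125 without the AT2, mixed, alveolar and bronchiolar BASC organoids. It was 0.0802 and 0.0711 without AT2 tumoroids 2 and 3, and 0.0812 and 0.0652 without mixed BASC tumoroids 2 and 3. It was 0.186 with the origin block and 0.102 with tumoroids of a shared title number summed. The call was lost in 13 of 20 alternatives, with adjusted p from 0.0207 to 0.186 and estimates from -1.40 to -0.88.

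Mdm2 was at 72.2, 73.1, 66.6 and 98.7 TPM in the organoids. In tumoroids it ran from 27.4 over a median of 40.7 to 74.4 TPM. By CPM all 7 tumoroids were below all 4 organoids, while per length mixed BASC tumoroid 1, at 74.4 TPM, was above 3 of them. The log2 fold change was -0.70 (SE 0.23) and the adjusted p of 0.0516 missed the threshold. It passed in 6 of 20 alternatives, with an adjusted p of 0.0298 with DESeq2, 0.0381 under a stricter filter, 0.0409 with limma, and 0.0345, 0.0395 and 0.0389 without AT2 tumoroid 1, mixed BASC tumoroid 1 and the bronchiolar tumoroid, over a range of 0.0298 to 0.164. By CPM, 1386 genes (8.59%) had all 7 tumoroids above all 4 organoids, which was true of 1 member, and 1127 genes (6.98%) had them all below, which was true of 3.

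The remaining targets varied more among tumoroids than between the groups. Cdkn1a was at 364, 237, 307 and 252 TPM in the organoids and from 125 over a median of 231 to 281 TPM in the tumoroids, with AT2 tumoroids 2 and 3 at the bottom (-0.39, SE 0.29, adjusted p 0.368). Phlda3 ran from 4.45 in AT2 tumoroid 2 to 225 TPM in the bronchiolar tumoroid, with a median of 32.4 TPM, against 52.4, 133, 50.0 and 134 TPM in the organoids (-0.40, SE 0.82, adjusted p 0.768, and -1.52 with an adjusted p of 0.0530 without the bronchiolar tumoroid). Eda2r ran from 0.110 to 5.93 TPM with a median of 1.61 TPM, against 3.37 to 6.38 TPM (-1.08, SE 0.73, adjusted p 0.327). Its low end rests on 7, 29 and 39 counts in AT2 tumoroid 2 and mixed BASC tumoroids 2 and 3. Zmat3 ran from 3.44 to 19.3 TPM against 10.8 to 17.5 TPM (-0.56, SE 0.40, adjusted p 0.356), and Sesn2 from 27.4 to 48.0 TPM against 25.4 to 34.5 TPM (0.30, SE 0.21, adjusted p 0.343).

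Beyond the members, calls in the p53 lists were set beside those among all genes, of which 19.6% were called. Of 35 other p53 targets 2 were higher and 3 lower, with a median of -0.23. That share lay below the one of all genes, and the difference was not tested. Ckap2, a spindle protein gene, rose by 1.00 (SE 0.19, adjusted p 0.00513), from 7.05 to 9.49 TPM in the organoids to 11.8 to 23.3 TPM in the tumoroids, and Gtse1, which is active in G2, rose by 0.94 (SE 0.29, adjusted p 0.0441). Both are cell cycle genes as well. Lower were the repair genes Polk, at 12.7 to 24.3 TPM in organoids and 5.40 to 11.9 TPM in tumoroids (-1.03, SE 0.22, adjusted p 0.00920), Rrm2b, at 11.4 to 15.8 and 5.82 to 9.18 TPM (-0.83, SE 0.13, adjusted p 0.00258), and Ercc5 (-0.76, SE 0.20, adjusted p 0.0218). None of Ckap2, Polk and Rrm2b overlapped between the groups. Polk and Rrm2b kept their calls in 20 of 20 alternatives and Ckap2 in 19, Gtse1 in 4 (adjusted p 0.0137 to 0.142), being lost without the AT2, mixed or alveolar BASC organoid or any 1 tumoroid, and Ercc5 in 17, being lost without the mixed or the bronchiolar BASC organoid and with the origin block (0.00299 to 0.0738).

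Of 23 regulators of p53, 2 were higher and 3 lower, with a median of -0.08, a share close to the 19.6% of all genes. Cdkn2a was at 115, 101, 87.8 and 119.6 TPM in the organoids and from 101 over a median of 420.3 to 703 TPM in the tumoroids, where AT2 tumoroid 1 alone stayed at the organoid level. It rose by 2.06 (SE 0.40, adjusted p 0.00621) and passed in 19 of 20 alternatives (up to 0.0601 with the origin block). The checkpoint kinase gene Chek1 rose by 0.87 (SE 0.28, adjusted p 0.0478), and passed in 5 alternatives (0.0110 to 0.263), being lost without any 1 organoid, any 1 AT2 tumoroid or mixed BASC tumoroid 2 or 3. Mdm4, which encodes the partner of Mdm2 that masks p53, fell by 0.98 (SE 0.22, adjusted p 0.0113), from 33.3 to 54.5 TPM in organoids to 10.1 to 30.6 TPM in tumoroids. Cop1, another p53 ubiquitin ligase gene, fell by 0.72 (SE 0.10, adjusted p 0.00154), from 107 to 122 TPM to 49.4 to 72.1 TPM, with no overlap and a call in 20 of 20 alternatives for both. Atr, the replication stress kinase gene, fell by 0.69 (SE 0.18, adjusted p 0.0218), and lost its call without the mixed or the bronchiolar BASC organoid, with limma, with no bronchiolar culture and with the origin block (0.00438 to 0.124).

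The p21-repressed genes made the clearest group. Of 20, 19 rose and 0 fell, with a median of 1.62 against -0.00 for all genes, and between 14 and 19 rose over the alternatives, with all 20 above 0 in each. The mitotic kinase gene Plk1 was at 6.31, 11.4, 8.59 and 9.10 TPM in the organoids and from 25.9 over a median of 43.5 to 64.4 TPM in the tumoroids (2.35, SE 0.22, adjusted p 0.000341). The cell cycle transcription factor genes Mybl2 (2.13, SE 0.33, adjusted p 0.00212) and Foxm1 (1.99, SE 0.29, adjusted p 0.00154) and the gene Cdc20 (2.07, SE 0.25, adjusted p 0.000897) rose likewise. None of these 4 overlapped between the groups, each kept its call in 20 of 20 alternatives, and the bronchiolar tumoroid was the lowest of the 7 in all of them. Nek2 was the gene of the list not called (0.81, SE 0.34). Cdkn1a, the gene through which p53 acts on this list, was not called over the same cultures.

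The p53 relatives did not pass: Trp63 was at 2.63 to 53 TPM in the organoids and 0.320 to 41.7 TPM in the tumoroids (-1.63, SE 1.33, adjusted p 0.422), with the bronchiolar tumoroid the high one, without which it passed (adjusted p 0.0475, range 0.0475 to 0.674). Trp73 was at 0.0300 to 2.69 TPM and 0 to 0.280 TPM (-4.18, SE 1.36, adjusted p 0.0519). Trp73 passed with DESeq2, without the AT2 organoid and with the autochthonous tumoroid added, and its adjusted p ran from 0.0319 to 0.173.

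Support markers varied between these cultures as well. Of 10 mesenchymal markers 9 were below 0, with a median of -0.52, and 1 was called (Lum, lower by -2.05, SE 0.38). Their summed TPM was 527, 339.7 and 8494 in AT2 tumoroids 1 to 3. In mixed BASC tumoroids 1 to 3 it was 1925, 4539 and 703, and in the bronchiolar one 2141. Vim or Fn1 was the most abundant, and none was at 0. The tumoroid with the highest sum, AT2 tumoroid 3, also had the most Trp53, and the one with the lowest, AT2 tumoroid 2, the least. Between them the sums and Trp53 ran in the same order, except in mixed BASC tumoroid 2. With a sum of 4539 TPM it had Trp53 at 146 TPM, below mixed BASC tumoroid 1 (172 TPM) and the bronchiolar tumoroid (183 TPM). Endothelial markers summed to 0.340 to 4.34 TPM, mostly Pecam1 (2.61, SE 0.73, the 1 of 6 measured well enough to test, higher), with Cldn5 at 0 in all 7. Immune markers summed to 13.7 to 39 TPM, with Cd68 or Cd79a (higher by 2.35, SE 0.55, 1 of 4 tested) the most abundant and Tyrobp at 0 in all 7. Of 7 AT2, 4 club and 5 basal markers 0 were called. Below 0 were 4 of 4 club markers (median -0.58), 5 of 5 basal markers (median -1.78) and 3 of 7 AT2 markers (median 0.35). Of 4 ciliated markers tested 3 were below 0 (median -1.89), and Ccdc39 and Rsph1 were called lower. Ccdc39 kept its call in 9 of 19 alternatives (adjusted p 0.00464 to 0.145) and Rsph1 in 16 of 19 (0.00105 to 0.119). Pecam1 kept its call in 15 of 20 (0.000665 to 0.135), with estimates from 0.84 to 2.97. It was lost without the mixed, alveolar or bronchiolar BASC organoid, with limma and with the origin block. Cd79a kept its call in 19 of 20 (3.41e-05 to 0.0537). The part of these cells in the results was not tested.

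AT2-derived and mixed BASC-derived tumoroids, 3 of each and all within the comparison above, were set against each other to ask whether the cell of origin shows in the pathway. It did not show in any member. edgeR called 0 of 15470 genes (0%), with 144 at an unadjusted p below 0.05 and 7 with DESeq2, and 0 of the 10 members. Trp53 was at 93.5, 85.4 and 216 TPM in AT2-derived and 172, 146 and 100 TPM in mixed BASC-derived tumoroids (0.05, SE 0.34, adjusted p 1.00), so that each origin held low and high cultures. The members lay between -0.34 for Phlda3 (SE 0.74) and 0.30 for Bax (SE 0.37), and all overlapped between the origins. Each of the 10 changed sign in at least 1 of the alternatives, and between 0 and 9 of 9 targets were below 0. Trp53 was at -0.36 without AT2 tumoroid 3, and without mixed BASC tumoroid 1 Ccng1 went from 0.08 to 0.83 and Eda2r from -0.18 to 1.68. Of the listed genes 0 passed, among them the p53 targets Rps27l (0.47, SE 0.18) and Bbc3, which encodes the death protein Puma (0.66, SE 0.35), the regulators Mdm4 (-0.55, SE 0.28) and Chek1 (0.51, SE 0.33), the cell cycle genes Bub1 (0.52, SE 0.22) and Mcm2 (0.23, SE 0.19), and Trp63 (-3.16, SE 0.83).

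Within the tumoroids the targets varied together. All 36 of 36 pairs of targets had a positive Pearson correlation of log2 CPM over the 8 tumoroids, with a median of 0.73, while 49.9% of all pairs of genes did and their median was -0.00. Over the 10 organoids 20 of 36 were positive with a median of 0.05 (all genes 50.4% and 0.01). The block is visible in single tumoroids: Ccng1 was at 28.7, 32.2 and 23.7 TPM in AT2 tumoroid 2 and mixed BASC tumoroids 2 and 3, where Zmat3 was at 3.44, 5.64 and 3.76 TPM and Trp53inp1 at 8.29, 5.99 and 7.96 TPM. In mixed BASC tumoroid 1 the same genes were at 94.1, 19.3 and 21.3 TPM, and in AT2 tumoroid 3 at 43.2, 10.1 and 8.68 TPM. Trp53 was at 85.4, 146 and 100 TPM in the first 3, at 172 TPM in mixed BASC tumoroid 1 and at 216 TPM in AT2 tumoroid 3. Cdkn2a was at 491, 553, 420.3, 274 and 703 TPM in the same order. These cultures share a platform and, for some, a title number, so the correlations are descriptions.

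**Figure D3:**
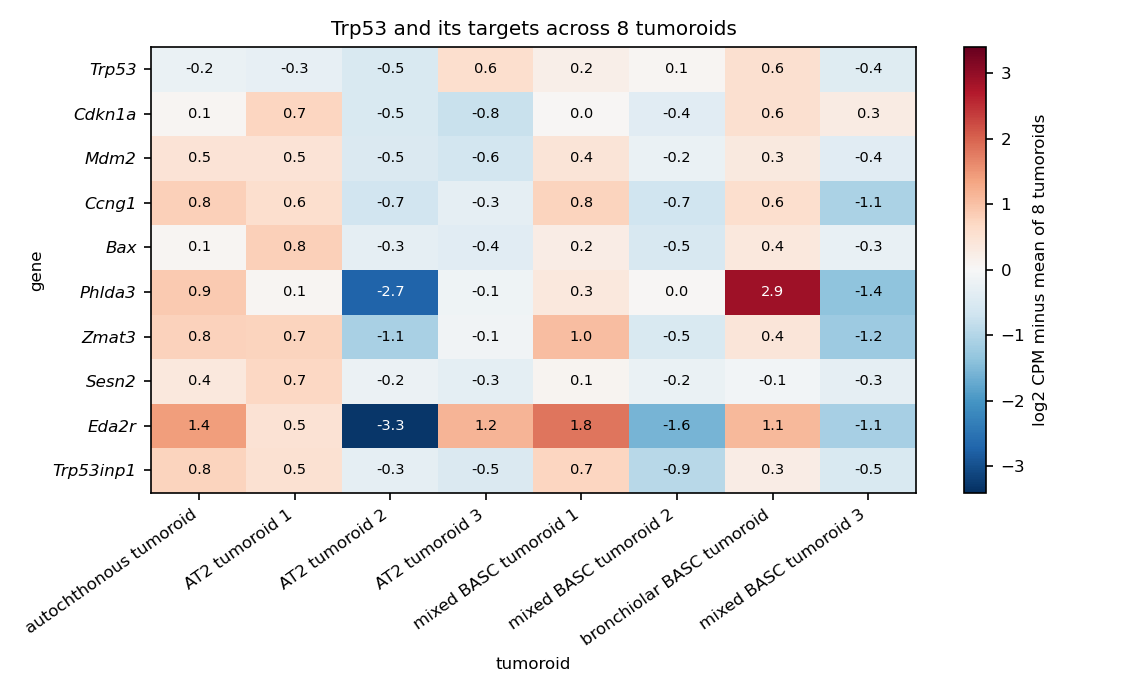
Heat map of log2 CPM of the 10 members (one line a gene) in the 8 tumoroids (columns), centred on the tumoroid mean of each gene. Ccng1, Zmat3, Eda2r and Trp53inp1 are low together in AT2 tumoroid 2 and mixed BASC tumoroids 2 and 3, and in AT2 tumoroid 3, which has the most Trp53 (216 TPM), Ccng1 and Trp53inp1 are low and Eda2r is not.

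Across cultures the targets differed in how they ran with Trp53. Over the 10 organoids, Cdkn1a had a Pearson correlation of -0.71 with Trp53 (Spearman -0.64) and Sesn2 of -0.73 (Spearman -0.59), and the other 7 targets lay between -0.27 and 0.24. Without the bronchiolar and mixed BASC Ad-Cre cultures, the farthest from the median in Trp53, these were -0.45 and -0.21, so the Sesn2 relation rests on them. With all 10 cultures 4 of 9 targets were negative with a median of 0.06, against 47.5% and 0.03 over 16451 genes. Without those 2 cultures 9 of 9 were negative, as Mdm2 went from 0.24 to -0.33, Ccng1 from 0.06 to -0.30, Zmat3 from 0.22 to -0.23, Eda2r from 0.22 to -0.27 and Phlda3 from 0.18 to -0.01. On log2(TPM + 1) without the same 2 cultures 7 of 9 were negative, with Phlda3 at 0.24 and Trp53inp1 at 0.15, so the count depends on the scale and on 2 cultures. Over the 8 tumoroids Phlda3 (0.69, Spearman 0.52) and Eda2r (0.60, Spearman 0.62) ran with Trp53, at 0.68 and 0.55 without AT2 tumoroid 3 and the bronchiolar tumoroid. Over all 8, Zmat3 was at 0.39, Ccng1 at 0.30, Cdkn1a at -0.14 and Mdm2 at 0.05 (0.47 without those 2 tumoroids), 2 of 9 were negative, and the median was 0.05 against 0.01 over all genes, of which 49.6% were negative. Organoid points of different cell types share a platform, pairs share a sorted population, and none of these target correlations was pooled over the platforms.

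The start of the Cdkn1a and Ccng1 genes can be shown in sequence, since each carries a near match to the p53 response element. Promoter windows of 300 bases from RefSeq (GRCm38.p6) were found for 8 members, and searched on both strands for the p53 response element, which is a pair of adjacent 10-base half-sites, with at most 1 mismatch. It is held by 22 of 32851 windows (0.0670%), and by 2 members, each with 1 mismatch. The E-box CACGTG, a frequent promoter word, is in 2349 windows (7.15%) and in those of Trp53, Bax and Eda2r. Capitals mark the match, and a match is a description, not a bound site. They stand at chr17:29090913-29090962 on the plus strand (Cdkn1a), chr11:40755447-40755496 on the minus strand (Ccng1) and chr11:69580354-69580389 on the plus strand (Trp53).
Cdkn1a: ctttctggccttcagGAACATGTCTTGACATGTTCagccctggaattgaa
Ccng1: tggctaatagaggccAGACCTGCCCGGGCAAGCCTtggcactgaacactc
Trp53: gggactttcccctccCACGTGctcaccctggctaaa
Cdkn1a and Ccng1, which share this element, differed alike in the club pair (-0.12 and -0.11) and the basal pair (-0.29 and -0.23). All 9 targets were below 0 in those pairs, so this is not particular to Cdkn1a and Ccng1. In the distal pairs they did not differ alike. In AT2 organoids with Ad-Cre Cdkn1a was higher (0.26) and Ccng1 lower (-0.50). In mixed BASC organoids Cdkn1a was lower (-0.63) and Ccng1 higher (0.22). All these are log2 differences from Ad-GFP.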

How the data were processed

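Total RNA of all 18 cultures was sequenced. The authors trimmed reads with Trimmomatic 0.39, aligned them with STAR 2.6.1d to GRCm38 and quantified genes with RSEM 1.3.2. The deposited tables hold RSEM expected counts and TPM for 46603 genes, of which 46005 matched GENCODE vM21 and 598 did not. Rounded expected counts were fitted in R 4.3.3 with edgeR 4.0.16: filterByExpr on the groups compared, TMM factors, quasi-likelihood fit, and Benjamini-Hochberg adjustment over all genes tested (threshold 0.05). Cell population was a block in the Ad-Cre comparisons, since both viruses were given to cells of the same sort. The pairing was checked: deviations of paired cultures correlated at 0.720 (club), 0.848 (basal), 0.948 (AT2) and 0.367 (mixed BASC) over 16452 genes, each deviation taken from the mean of its virus group. Correlations used log2 CPM on TMM-scaled totals with a prior count of 2.

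Alternatives were DESeq2 1.42.0, its size factors in edgeR, no filter beyond 1 count, at least 10 counts in every sample, leaving out each pair or culture, no block, limma 3.58.1 on log2(TPM + 1) for genes with a mean of at least 1 TPM, and other choices of cultures. The model was tested on simulated data. Depth had a median of 55182025.5 counts in organoids and 22464438.5 in tumoroids, and standard errors cover the spread between cultures. The members and all lists were chosen with earlier results of these data known. Genes were named by rule: the members in each comparison, up to 4 called genes with the largest change from each list of other targets, regulators and cell cycle genes (or the 2 with the smallest p where none was called), both p53 relatives, and genes from the 5 most correlated with Trp53 and with Cdkn1a. Other genes, such as markers, Ercc5 and Atr, were named to complete a count. The autochthonous tumoroid enters no edgeR comparison except in an alternative, and is counted among the 8 tumoroids in levels, overlaps and correlations.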

Additional observations from a re-analysis of the deposited data

Results flagged for a closer look

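For each member in 6 groups of cultures, 60 cases in all, the gap between the most distant culture and its neighbour was set against the range of the group. In 2 cases it passed a cut-off at which chance flags about 1 in 20 groups. A gap that took most of the range was not always flagged. Ccng1 in Ad-GFP organoids, at 8.24 log2 CPM in AT2 cells and 7.26 to 7.45 in the others, was not. Phlda3 in the Ad-Cre organoids of the matched pairs was at 5.40 log2 CPM (52.4 TPM) in AT2 cells, against 6.47 to 6.62 (127 to 133 TPM) in the other 3. The AT2 control, at 58.1 TPM, was low in the same way. Sesn2 in the transplant tumoroids was at 6.88 log2 CPM (48.0 TPM) in AT2 tumoroid 1, against 5.85 to 6.28 (27.4 to 41.5 TPM) in the other 6. The cause was not tested in either case.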

How the results depend on the processing

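DESeq2 called more genes than edgeR in the comparisons where edgeR called few: 5 over the 4 pairs, 2 in tracheal pairs, 355 in distal pairs, 145 for the difference of the regions, 7 between tumoroid origins and 2928 between regions of organoids. With no filter 96 genes were called in distal pairs and 2 for the difference. Leaving out 1 pair gave 0 to 46 calls in tracheal pairs, 0 to 3043 in distal pairs and 0 to 2036 for the difference, and 0 each time over the 4 pairs, as did leaving out 1 tumoroid between origins. With no replicate block the pairing is ignored, and 0 genes were called over the 4 pairs, in tracheal pairs and in distal pairs. Leaving out 1 culture gave 1973 to 3716 calls for tumoroids against organoids, the lowest without the bronchiolar organoid, and 0 to 4856 between regions. The origin block gave 1157 calls for tumoroids against organoids, with the alveolar organoid left out. Between regions limma called 34 genes and the 8 matched cultures alone 1. The cause was not tested. With limma on TPM the median of all genes was -0.10 for tumoroids against organoids (-0.00 with edgeR), -0.14 between tumoroid origins (0.04) and 0.10 between regions (0.00).

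No member changed sign for tumoroids against organoids, and in distal pairs 5 did: Cdkn1a (-0.60 to 0.25), Ccng1 (-0.51 to 0.25), Bax (-0.18 to 0.18), Phlda3 (-0.12 to 0.15) and Zmat3 (-0.28 to 0.18). Over the 4 pairs Bax, Zmat3 and Eda2r did, in the difference of the regions 7 members, Trp53 among them (-0.24 to 0.47), between tumoroid origins all 10, and between regions Sesn2 and Trp53inp1. Depth limits Eda2r most, with 7 counts in its lowest tumoroid.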

Other observations

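The genes most like Trp53 over the 18 cultures, by Pearson correlation of log2 CPM centred within organoids and within tumoroids among 10280 genes, were Cdc37 (0.84), a chaperone partner of Hsp90, Itgav (0.83), the integrin alpha V gene, Gm14698 (0.82), Rtn4 (0.82), a reticulon of the endoplasmic reticulum, and Actn1 (0.81), the actin crosslinker alpha-actinin 1. Actn1 was at 97.0 TPM in the alveolar BASC culture and 498 TPM in the bronchiolar one, and among the tumoroids at 291 TPM in AT2 tumoroid 3 and 372 TPM in the bronchiolar one. Among those most like Cdkn1a were Hspb8 (0.82), a small heat shock protein gene, Crip2 (0.82), Uros (0.81), an enzyme of haem synthesis, and Gm1821 (0.81), which the annotation lists as a pseudogene and whose reads may belong to other genes. No target of the set was among the 5 genes nearest to Trp53, and the points share platforms and sorted populations.

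The autochthonous tumoroid, from a tumour raised in the lung by Ad-Cre and never transplanted, held Trp53 at 112 TPM, Bax at 147, Cdkn1a at 203, Ccng1 at 83.7, Mdm2 at 63.0, Phlda3 at 57.8, Sesn2 at 42.6, Trp53inp1 at 19.1, Zmat3 at 15.5 and Eda2r at 3.90 TPM. Each lies within the range of the 7 transplant tumoroids, and Ccng1, Zmat3 and Trp53inp1 were closer to mixed BASC tumoroid 1 than to AT2 tumoroid 2 or mixed BASC tumoroids 2 and 3. Cdkn2a was at 188 TPM in it and Plk1 at 26.8 TPM.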
